A study of Saccharomyces cerevisiae S288C with 9 samples.

Results

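Expression was compared between budding yeast cells whose Set1 protein carries glutamate in place of 1 serine (S228E, 3 libraries) and wild-type cells (WT, 3 libraries). These 6 libraries were taken by their strain labels from a series of 9, whose other 3 libraries come from a strain with alanine at that position (S228A). All 9 were total RNA from the S288C background, from untreated cultures in mid-log growth on YPD, a rich medium with glucose. The labels say nothing of how the alleles were made or of independent clones, so each strain stands here as 1 labelled strain with 3 replicates, which the design text calls biological. The count table held 7127 annotated rows, of which 6133 had enough reads to be tested.

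Set1 is the enzyme of COMPASS, which places methyl groups on lysine 4 of histone H3 where transcribed yeast genes begin. The trimethylated form of the mark is laid down close to promoters and depends on ubiquitylation of histone H2B and on the PAF1 complex, while the demethylase Jhd2 removes it. Loss of Set1 is known in yeast for derepression of Ty1 retrotransposons, subtelomeric genes and repressed middle-meiotic genes, with small effects on most other genes. Glutamate is often placed at a serine to imitate phosphorylation, and alanine to prevent it.

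The wild-type stretch around the substituted position is shown so that the change can be located. In the RefSeq R64 genome, the SET1 codon of that serine lies on the + strand within chrVIII:346694-346756, where the capitals mark the serine codon.
SET1 codon with flanks: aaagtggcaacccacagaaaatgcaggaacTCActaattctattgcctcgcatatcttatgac
The table holds counts per gene and no base calls, so the substitution itself was not visible in these data.

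SET1 was transcribed in every library at 236.0, 207.4 and 213.3 CPM (counts per 1000000 counts of the library, scaled by TMM factors) in S228E, against 203.3, 203.5 and 192.6 CPM in WT. The 3 S228E values lay just above the 3 WT values. The log2 fold change was 0.13 ± 0.08 (SE, 3 libraries each) with a 95% interval from -0.05 to 0.31, and the adjusted p was 0.855 (edgeR quasi-likelihood test, Benjamini-Hochberg over 6133 rows). An interval of this kind sets the largest change compatible with the replicate spread, and a row was called bounded when its whole interval lay within a 1.5-fold change in either direction. SET1 was bounded by that rule.

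S228E cells had almost the same transcriptome as WT cells. By the design text's thresholds (an adjusted p below 0.05 with a change of more than 1.5-fold), 2 rows rose, 1 row fell and the rest were not called. The called share was 0.0489% in either direction, 0.0326% higher and 0.0163% lower (edgeR quasi-likelihood test). The row that rose with the smallest p was YAR009C, a truncated Ty1 gag-pol reading frame, and the second was YLR161W, a short reading frame of unknown function in the ASP3 repeat. The row that fell was QRI5, which encodes a mitochondrial protein needed for processing of COX1 messenger RNA.

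Most rows were bounded as well as uncalled. In 5292 rows (86.3%) the 95% interval lay within 1.5-fold of WT, and in 3458 rows (56.4%) it lay between a 25% increase and the matching decrease. Adjusted over all rows, 2 one-sided edgeR-based tests called 5446 rows (88.8%) equivalent to WT to within 1.5-fold. Among 5719 protein-coding rows, 5178 (90.5%) were bounded. The median log2 fold change over all tested rows was -0.00 and the quartiles were -0.09 and 0.07. The 5th and 95th percentiles were -0.28 and 0.19, and the 1st and 99th were -0.55 and 0.43.

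**Figure D1:**
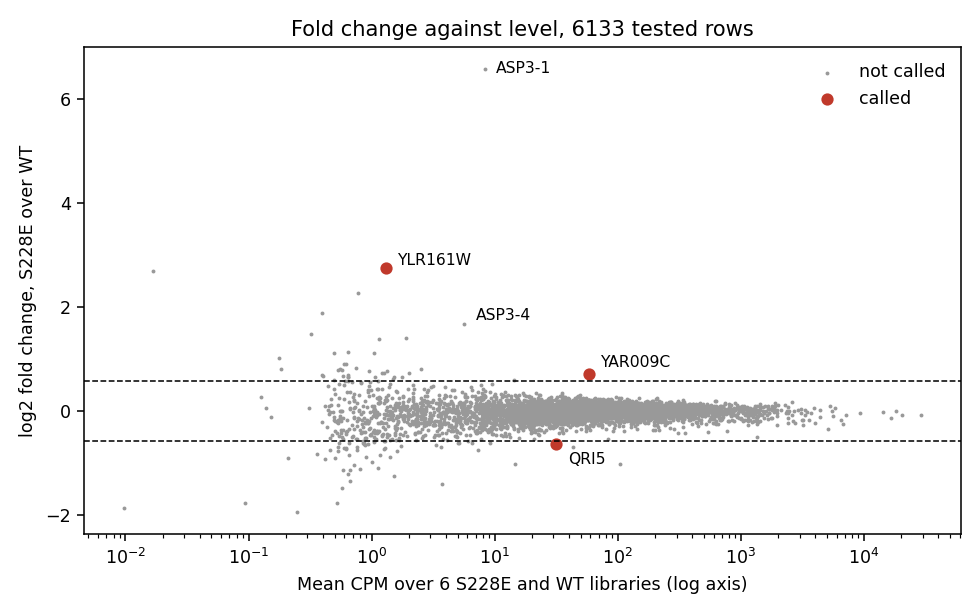
Log2 fold change (S228E over WT, vertical axis) against mean CPM over the 6 libraries (horizontal log axis) for 6133 tested rows, with the 3 called rows in red and dashed lines at a 1.5-fold change. The cloud narrows with level, and at 5 CPM or more 4 rows lie above the upper line and 9 below the lower one.

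What could be bounded depended on the level of the row. Under 1 CPM (176 rows), 1.70% were bounded and the median half-width of the interval was 1.02 on the log2 scale, a factor of 2.02. From 1 to 5 CPM (421 rows) 11.6% were bounded, and from 5 to 20 CPM (825 rows) 78.2% were. The share was 97.4% of 2897 rows from 20 to 100 CPM, 98.0% of 1466 rows from 100 to 500 CPM and 96.6% of 348 rows at 500 CPM or more. In these 3 upper ranges the median half-width was 0.20, 0.17 and 0.20 on the log2 scale, equal to factors of 1.15, 1.13 and 1.15 on either side of the row's own estimate.

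**Figure D2:**
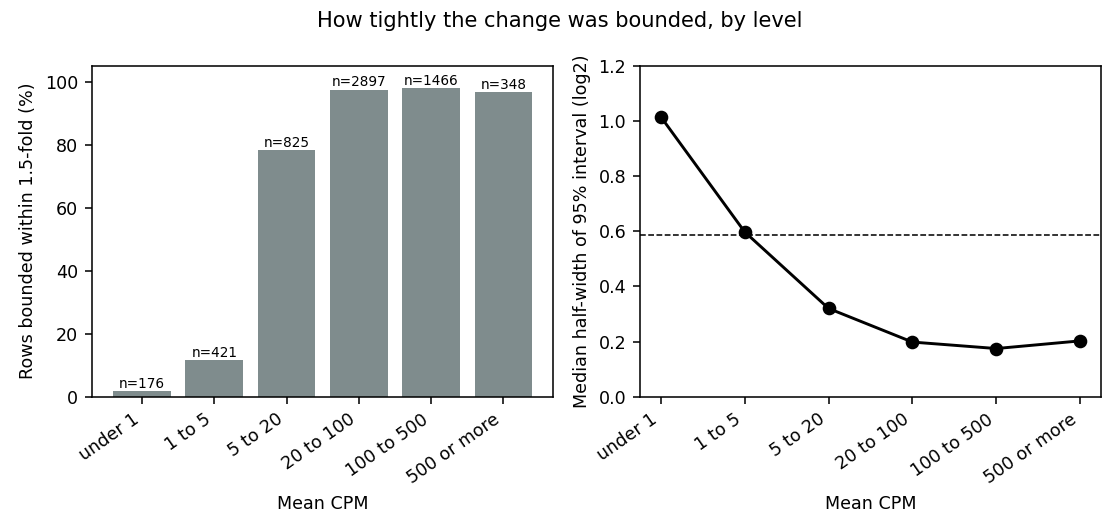
Share of rows whose 95% interval lies within a 1.5-fold change (left, percent, rows per bin above the bars) and median half-width of the interval (right, log2 units, dashed line at log2 of 1.5), by mean CPM. The bounded share is 1.70% in the lowest bin and 97.4% from 20 to 100 CPM.

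At 5 CPM or more, 5240 of 5536 rows (94.7%) were bounded. By estimate alone 94 rows lay past 1.5-fold, 39 higher and 55 lower, and 81 of these were under 5 CPM. The interval reached past 2-fold in 283 rows, and 19 of these were at 5 CPM or more. Another 249 rows had intervals that left out 0 and yet lay wholly within 1.5-fold.

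The tightest intervals belonged to housekeeping genes at moderate or high level. CHC1, the clathrin heavy chain, had 313.7, 324.3 and 315.6 CPM in S228E, against 328.5, 326.3 and 323.5 CPM in WT, a log2 fold change of -0.04 with an interval from -0.17 to 0.09. YPK1, a protein kinase of the plasma membrane stress pathway, had 268.4, 270.1 and 274.1 CPM in S228E, against 270.4, 269.2 and 270.3 CPM in WT, with an interval from -0.13 to 0.14. Intervals equally narrow were found for ATP11, an assembly chaperone of the ATP synthase (-0.14 to 0.12), PAP1, the poly(A) polymerase (-0.01 to 0.25), and TOM71, a mitochondrial import receptor (-0.07 to 0.20).

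The widest intervals at 5 CPM or more belonged to rows that varied between replicates of the same strain. ASP3-1, an asparaginase gene of the ASP3 repeat, is described with its neighbours in that repeat. RCK1, a protein kinase of the oxidative stress response, had 66.3, 133 and 140.9 CPM in S228E, against 94.5, 50.3 and 185 CPM in WT, and its interval ran from -1.08 to 1.17. DAN1, a cell wall protein of anaerobic growth, ran from -0.73 to 1.75, RGI2 from -1.18 to 0.63 and the dubious reading frame YEL034C-A from -2.14 to 0.10. The interval of RCK1 reached past 2-fold in both directions, that of DAN1 only upward, and those of RGI2 and YEL034C-A only downward.

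Of the 3 called rows, YAR009C had the smallest p. It had 74.9, 69.5 and 70.9 CPM in S228E, against 44.7, 43.2 and 44.2 CPM in WT. The groups were tight and far apart. The log2 fold change was 0.71 ± 0.07 (SE, 3 libraries each), with a 95% interval from 0.54 to 0.87 and an adjusted p of 0.00313 (edgeR quasi-likelihood test). S228A, set against the same WT libraries, had 97.7 ± 8.02 CPM (SD, n = 3) and a log2 fold change of 1.15 ± 0.07 (SE). The difference between S228E and S228A was itself past the threshold for p, at -0.44 ± 0.07 on the log2 scale (adjusted edgeR p 0.000541).

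YAR009C lies at chrI:160597-164187 on the - strand and belongs to a repeated family, so its split from other copies is uncertain. No option to keep multiply placed reads was set, but the aligner is not given. The adjoining Ty1 row, YAR010C, had a log2 fold change of 0.46 ± 0.36 (SE), with an interval from -0.33 to 1.251 that set little limit. The nearby single-copy genes SWD1, RFA1 and BUD14 had log2 fold changes of 0.02, 0.01 and 0.06, each bounded within 1.5-fold.

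Transposon rows other than YAR009C were not called. Of 91 transposon rows 50 were tested, and the values of these 50 given here include YAR009C. A positive log2 fold change was found for 35 and a negative one for 15. The median was 0.12, against -0.00 over all tested rows. That median was 0.02 without S228E replicate 1 and 0.20 without WT replicate 3. In 7 of the 50 all S228E values lay above all WT values and in 1 they lay below, where the shares over all tested rows were 6.73% above and 7.68% below. Half-widths were large here and 26 of the 50 rows (52.0%) were bounded. YGR038C-B had 109.5, 112.7 and 98.1 CPM in S228E, against 85.1, 93.7 and 85.7 CPM in WT, a log2 fold change of 0.28 ± 0.08 (SE) with an adjusted edgeR p of 0.644. Transposon rows together took 0.207%, 0.181% and 0.179% of the counts in S228E, against 0.162%, 0.155% and 0.180% in WT, so the totals overlapped. In S228A the share was 0.559% to 0.631%.

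QRI5 was the called row that fell. It had 24.8, 25.8 and 23.5 CPM in S228E, against 39.7, 39.5 and 36.2 CPM in WT. All S228E values lay well below all WT values. The log2 fold change was -0.64 ± 0.09 (SE, 3 libraries each), with an interval from -0.82 to -0.45 and an adjusted p of 0.0190 (edgeR quasi-likelihood test). S228A had 23.6, 22.3 and 25.2 CPM, a log2 fold change of -0.70 ± 0.09 (SE) against the same WT libraries, and S228E and S228A differed by 0.06 ± 0.09 (SE, adjusted edgeR p 0.647).

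QRI5 lies at chrXII:552270-552605 on the + strand, and no annotated neighbour overlaps it. MSS51, the upstream neighbour and a translational activator of COX1, had a log2 fold change of -0.09 ± 0.08 (SE), and HMX1, the heme oxygenase gene downstream, -0.28 ± 0.18 (SE). The estimate for QRI5 stood near the 1.5-fold line, and its call was lost without S228E replicate 1, 2 or 3 (adjusted edgeR p 0.0870, 0.0718 and 0.164) and without WT replicate 1 or 2 (0.153 and 0.0893). It was also lost with edgeR on the 6 libraries alone (adjusted p 0.0527) and with counts adjusted for gene length, where the estimate of -0.56 was under 1.5-fold. Over 16 alternative settings its log2 fold change stayed between -0.68 and -0.56 and its adjusted p reached 0.164.

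YLR161W rests on few reads. It had 49, 28 and 40 counts in S228E, against 8, 7 and 3 counts in WT, which is 2.47, 1.58 and 2.77 CPM in S228E, against 0.409, 0.411 and 0.172 CPM in WT. The groups did not overlap. The log2 fold change was 2.74 ± 0.39 (SE, 3 libraries each), with an interval from 1.89 to 3.60 and an adjusted p of 0.0259 (edgeR quasi-likelihood test). In S228A the counts were 19, 25 and 32, a log2 fold change of 2.03 ± 0.42 (SE) against the same WT libraries. The call was lost without S228E replicate 1 or 3 (adjusted edgeR p 0.133 and 0.164) and without WT replicate 1, 2 or 3 (0.153, 0.0893 and 0.0753). It was also lost with limma-voom (adjusted p 0.0685) and with edgeR on the 6 libraries alone, while the log2 fold change stayed between 2.45 and 2.95 over 16 alternatives.

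YLR161W lies at chrXII:488997-489341 on the + strand, in a tandem array of the asparaginase gene ASP3 and a 5S ribosomal RNA gene. Its 345 bases are identical in YLR159W and YLR156W in the RefSeq R64 genome, and the identity runs on for 124 bases to its right. To its left the identity runs on for 3447 bases in YLR159W and 57 bases in YLR156W. The edge of the repeat is shown because only reads that reach past such an edge tell the copies apart. Each line gives the + strand of R64, with the last 20 shared bases in lower case and the 30 bases after them in capitals, at chrXII:489446-489495, chrXII:485794-485843 and chrXII:472562-472611.
YLR161W: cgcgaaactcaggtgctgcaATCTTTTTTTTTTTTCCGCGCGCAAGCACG
YLR159W: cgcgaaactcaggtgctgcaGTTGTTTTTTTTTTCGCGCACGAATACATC
YLR156W: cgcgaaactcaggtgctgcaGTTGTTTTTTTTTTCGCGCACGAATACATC
The bases after the edge are the same in YLR159W and YLR156W and differ from those of YLR161W. YLR159W and YLR156W had sums of 2 and 1 counts over the 3 S228E libraries, against 0 and 2 counts over the 3 WT libraries. No option to keep multiply placed reads was set, but the aligner is not given. How reads of the repeat were placed is thus not known. The values of YLR161W describe the reads counted there and not the level of the repeat.

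ASP3-4, the asparaginase copy next to YLR161W, was the uncalled row nearest to a call. It had 5.25, 9.65 and 10.8 CPM in S228E, against 2.35, 2.99 and 2.63 CPM in WT, with no overlap. Its log2 fold change was 1.68 ± 0.31 (SE), with an interval from 1.01 to 2.34 and an adjusted p of 0.189 (edgeR quasi-likelihood test). It was called by DESeq2 on all libraries (log2 fold change 1.70, adjusted p 1.88e-05) and, without S228E replicate 1, by edgeR (adjusted p 0.0382), and under no other alternative. In S228A, set against the same WT libraries, ASP3-4 had a log2 fold change of 1.39 ± 0.31 (SE). For this row S228E and S228A differed by 0.29 ± 0.28 (SE, adjusted edgeR p 0.469).

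ASP3-1 had 8, 850 and 12 counts in S228E, against 2, 6 and 1 counts in WT. One library, S228E replicate 2, held 97.5% of its S228E level. Its log2 fold change of 6.57 ± 1.72 (SE) had an adjusted edgeR p of 0.644 and was 1.79 without that library. The coding sequences of ASP3-4, ASP3-1, ASP3-2 and ASP3-3 are identical over 1089 bases, so the split of reads among them is uncertain. ASP3-4 and ASP3-3 also share 651 bases to the left and 2176 bases to the right on the chromosome. ASP3-2 had no count in any library, and ASP3-3 had 5, 15 and 8 counts in S228E, against 3, 4 and 6 counts in WT.

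**Figure D3:**
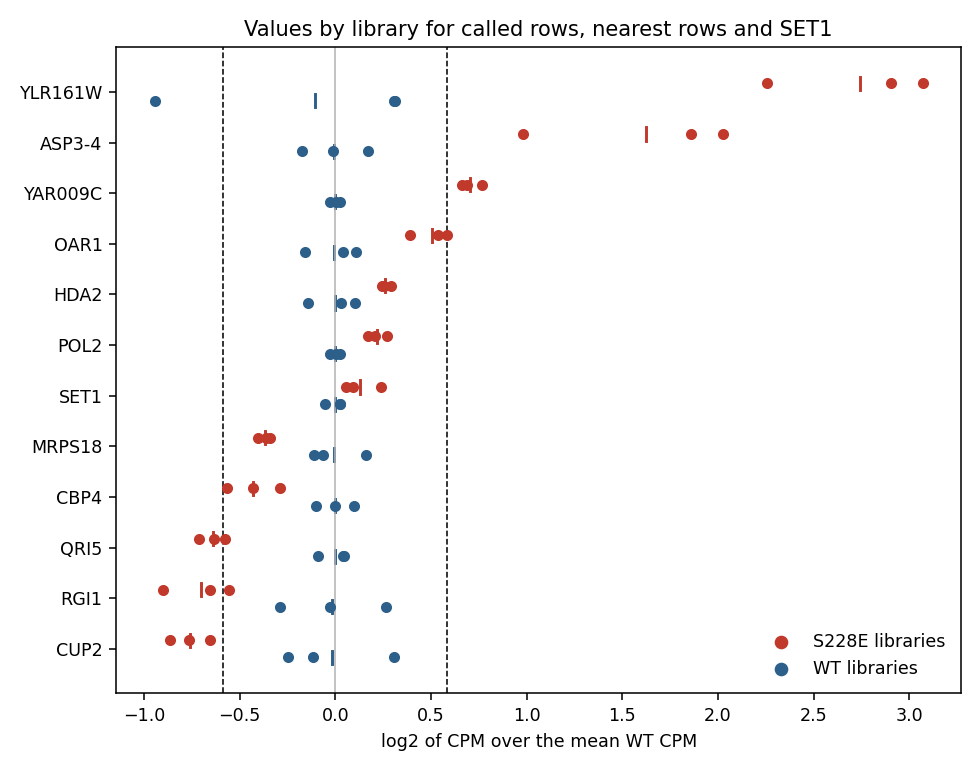
Log2 of each library's CPM over the mean WT CPM for the 3 called rows, 8 of the rows nearest to a call and SET1, with S228E libraries in red above WT libraries in blue, short vertical bars at the mean of each group and dashed lines at a 1.5-fold change. In YAR009C and QRI5 each group is tight, while in YLR161W and ASP3-4 the S228E libraries lie spread out above WT. In YLR161W the WT libraries, at 0.172 to 0.411 CPM, spread more on this axis than those of S228E, at 1.58 to 2.77 CPM.

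Beyond these rows, no row had an adjusted p under 0.2, and 6 rows in all had one under 0.5. Unadjusted p-values under 0.05 were found for 345 rows (5.63%), 110 higher (1.79%) and 235 lower (3.83%). All S228E values lay above all WT values in 413 rows (6.73%) and below them in 471 rows (7.68%). The rows named next had the smallest p at 5 CPM or more or the largest fold change without overlap, and none passed the test.

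On the lower side the nearest gene was RGI1, which is induced in respiratory growth and acts in energy metabolism. It had 36.3, 28.6 and 33.9 CPM in S228E, against 52.4, 43.6 and 64.1 CPM in WT, a log2 fold change of -0.70 ± 0.15 (SE) with an interval from -1.01 to -0.38 and an adjusted edgeR p of 0.474. CBP4, an assembly factor of the cytochrome bc1 complex, had 25.6, 28.1 and 31.1 CPM in S228E, against 37.9, 35.3 and 40.6 CPM in WT, and -0.43 ± 0.09 (SE, adjusted edgeR p 0.474). In both genes all S228E values lay below all WT values. In S228A, set against the same WT libraries, RGI1 stood at -0.36 and CBP4 at -0.48.

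Several of the other nearest lower rows encode mitochondrial proteins. MRPS18, of the small mitochondrial ribosomal subunit, had 53.1, 50.9 and 52.2 CPM in S228E, against 62.3 CPM or more in each WT library, with a log2 fold change of -0.37 that was bounded within 1.5-fold. COX20, an assembly factor of cytochrome oxidase, stood at -0.36 and was bounded too. ATP19, a small subunit of the ATP synthase, stood at -0.52 and ODC1, a mitochondrial dicarboxylate carrier, at -0.38, and their intervals reached past 1.5-fold. All 4 had S228E values wholly below WT, and their adjusted edgeR p was 0.586 to 0.644. In S228A, set against the same WT libraries, MRPS18 stood at -0.64, COX20 at -0.42, ATP19 at -0.30 and ODC1 at -0.29.

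CUP2, the copper-responsive activator of metallothionein, had 5.40, 5.02 and 5.83 CPM in S228E, against 8.44, 11.3 and 7.72 CPM in WT, and its log2 fold change of -0.76 ± 0.19 (SE) was the largest of the non-overlapping lower rows at 5 CPM or more. SPO1, a meiosis-specific gene, stood at -0.46 and MCO12, a small mitochondrial protein, at -0.61. The uncharacterized rows YBR209W and YDR524W-C stood at -0.61 and -0.42.

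On the higher side the uncalled gene nearest to a call outside the ASP3 repeat was OAR1, which encodes a mitochondrial enzyme of fatty acid synthesis. It had 8.38, 9.59 and 9.29 CPM in S228E, against 6.90, 6.57 and 5.72 CPM in WT, a log2 fold change of 0.50 ± 0.14 (SE, adjusted edgeR p 0.644). HDA2, a subunit of the Hda1 histone deacetylase, had 41.2, 40.2 and 40.0 CPM in S228E, against 36.2, 30.6 and 34.4 CPM in WT, a log2 fold change of 0.26. POL2, the catalytic subunit of DNA polymerase epsilon, had 62.6, 61.2 and 65.5 CPM in S228E, against 54.4, 55.2 and 53.3 CPM in WT, a log2 fold change of 0.22. The groups did not overlap in any of these, and HDA2 and POL2 were bounded.

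POL2 was among the genes where the other substitution gave a different value, since S228A, set against the same WT libraries, had a log2 fold change of -0.91 ± 0.07 (SE) for it. The other nearest higher genes were EXO70 of the exocyst (0.28), BIR1 of the chromosomal passenger complex (0.31), SMI1 of cell wall synthesis (0.20), the vacuolar kinase gene YCK3 (0.23) and RED1 of the meiotic chromosome axis (0.38). All but RED1 were bounded within 1.5-fold, and their adjusted edgeR p was 0.644 to 0.648. CDC26, a subunit of the anaphase-promoting complex, stood at 0.45 and RRN11, of the RNA polymerase I core factor, at 0.42, each with an interval that included 0. RRN11 stood at 2.67 ± 0.19 (SE) in S228A against the same WT libraries.

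All 8 COMPASS genes were bounded within 1.5-fold. None was called, where the called share over all tested rows was 0.0489%. Apart from SET1, BRE2 was the subunit whose S228E values all lay above WT, at 25.6, 26.0 and 26.2 CPM in S228E, against 24.2, 24.1 and 24.2 CPM in WT, a log2 fold change of 0.10. SWD2, shared with the cleavage and polyadenylation factor, stood at 0.16 (-0.03 to 0.34) and SWD3 at -0.20 (-0.50 to 0.09). SWD1, SPP1, SDC1 and SHG1 had log2 fold changes of 0.02, 0.04, 0.07 and -0.10.

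The 10 genes of H2B ubiquitylation, the PAF1 complex and H3K4 demethylation were all bounded, with a median of 0.00. JHD2 had 23.8 to 25.2 CPM in S228E, against 24.6 to 28.03 CPM in WT, with an interval from -0.31 to 0.07. All 6 other histone methyltransferase genes and all 23 genes of the Rpd3, Set3 and Hda1 deacetylase complexes were bounded. Of 12 silencing and sirtuin genes 11 were bounded, the exception being SIR2, the silencing deacetylase, at 29.98, 29.5 and 30.2 CPM in S228E, against 35.3, 35.4 and 41.9 CPM in WT, a log2 fold change of -0.33 ± 0.12 (SE) and an adjusted edgeR p of 0.755.

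Across 30 lists of named pathways, 775 of 852 tested genes (91.0%) were bounded and 1 was called, QRI5. A gene held by 2 lists was counted once. With the subtelomeric, transposon and ASP3 lists added there were 33 lists, and 30 of these had no called member. The called share over all tested rows was 0.0489%, so a list without a call says little about its genes. Apart from the ASP3 list, list medians ran from -0.20 to 0.12 on the log2 scale, against -0.00 over all tested rows. In 5 lists the medians of the 3 S228E libraries did not overlap those of the 3 WT libraries. These were the core histones, the mitochondrial ribosomal proteins, the iron regulon, the subtelomeric genes and the ASP3 repeat. Over single tested rows, the share without overlap in either direction was 14.4%. The ASP3 list held 3 tested rows of 16 in the table. Of these, YLR161W and ASP3-1 had few WT counts and were tested only through their counts in the mutant libraries, which favoured a separation. Untested rows of that list went both ways, with 4 counts in S228E against 16 in WT for YLR162W, and 16 against 5 for YLR157W-D.

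**Figure D4:**
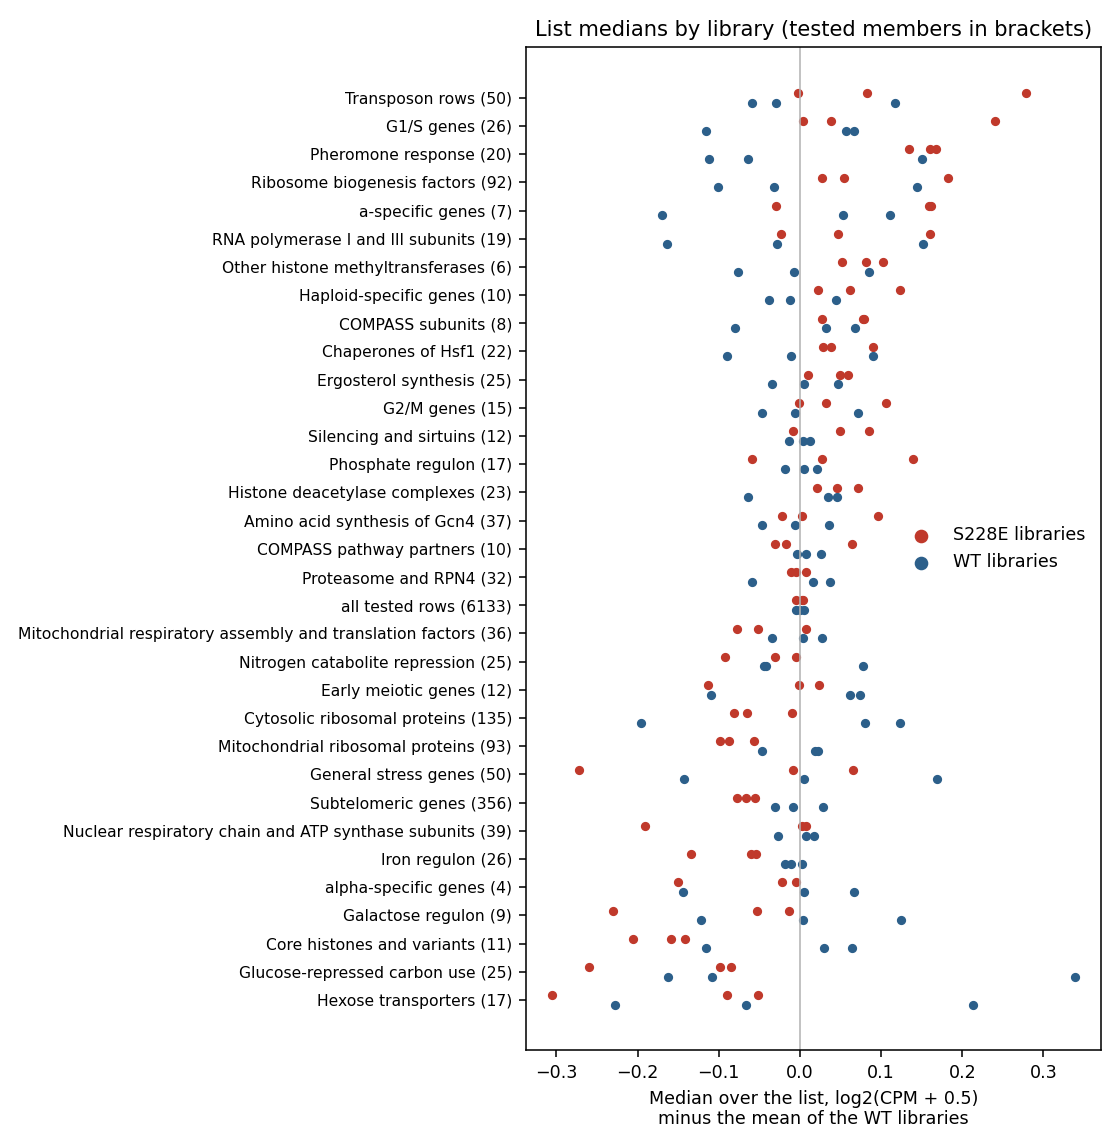
Median over each list of log2(CPM + 0.5) minus the mean of the WT libraries (horizontal axis, log2 units), with S228E libraries in red above WT libraries in blue and the number of tested members in brackets; the ASP3 list is left out. Most rows overlap, and WT replicate 3 is the highest point, at 0.34, in glucose-repressed carbon use.

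The core histone genes were the list with the lowest median among those fully bounded. Of 11 genes 10 had a negative log2 fold change, the median was -0.15, and the library medians were -0.16, -0.14 and -0.21 in S228E, against 0.03, 0.06 and -0.12 in WT. HHF2, a histone H4 gene, had 392.4, 404 and 414 CPM in S228E, against 521, 479 and 468 CPM in WT, a log2 fold change of -0.28 (-0.44 to -0.12). HHT1, a histone H3 gene, had 241, 235 and 223 CPM in S228E, against 315, 315 and 249 CPM in WT, and stood at -0.33 (-0.53 to -0.13). Their adjusted edgeR p was 0.644, and all 11 genes were bounded within 1.5-fold. The core histone genes come in pairs, while the listed HTZ1, HHO1 and CSE4 are single genes. How reads split within the pairs was not tested. With read counts adjusted for gene length, as described further on, the list median was -0.07.

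Genes of mitochondrial gene expression and respiration were mostly on the lower side by small amounts. Of 93 tested genes in the mitochondrial ribosomal list, which includes some MRX genes that are not all ribosomal, 73 were lower and 20 higher, with a median of -0.06 and 89 bounded. In 24 of them (25.8%) all S228E values lay below WT, where the share over all tested rows was 7.68%. Of 39 respiratory chain and ATP synthase genes 32 were lower, with a median of -0.07, or -0.01 without S228E replicate 1, and 37 bounded. COX9, a subunit of cytochrome oxidase, had 71.8, 80.2 and 85.4 CPM in S228E, against 106, 104 and 98.1 CPM in WT, a log2 fold change of -0.38 with an adjusted edgeR p of 0.644. Of 36 respiratory assembly and translation factors 26 were lower, with a median of -0.02 and 33 bounded. With the length adjustment these 3 medians were -0.02, -0.01 and -0.01.

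Growth-related genes were held to narrow limits. Of 92 ribosome biogenesis factors 77 were higher and 15 lower, the median was 0.10, and 91 were bounded. SOF1, of the small subunit processome, had 41.5, 38.7 and 36.2 CPM in S228E, against 30.9, 33.1 and 33.0 CPM in WT, a log2 fold change of 0.26 with an adjusted edgeR p of 0.761. The library medians of the list were 0.18, 0.05 and 0.03 in S228E, against -0.03, 0.14 and -0.10 in WT, so they overlapped. Without 1 library the list median ranged from 0.03 (without S228E replicate 1) to 0.17 (without WT replicate 2). Of 135 cytosolic ribosomal protein genes 102 were lower, the median was -0.04, or 0.03 with the length adjustment, and 129 were bounded. Without WT replicate 2 that median was 0.02, and without WT replicate 3 it was -0.14. The 32 proteasome genes and the 25 ergosterol synthesis genes were all bounded, with medians of 0.00 and 0.05.

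Mating and cell cycle genes showed no call, where the called share over all tested rows was 0.0489%. All 7 a-specific genes and all 10 haploid-specific genes were bounded. STE6, the exporter of a-factor, had 224, 210.2 and 225 CPM in S228E, against 173, 196 and 196 CPM in WT, a log2 fold change of 0.22 (adjusted edgeR p 0.660). Of 20 pheromone response genes 15 were higher, with a median of 0.11, or 0.05 without WT replicate 1 and 0.17 without WT replicate 3, and 12 were bounded. Of 26 G1/S genes 20 were higher, with a median of 0.12 and 22 bounded, but without 1 library that median ranged from -0.01 to 0.17, with the lowest value without S228E replicate 1 and a value near 0 without WT replicate 3. Among them CLN1, a G1 cyclin, had 115, 110.1 and 109 CPM in S228E, against 107, 88.4 and 85.1 CPM in WT, a log2 fold change of 0.25 (adjusted edgeR p 0.743). All 15 G2/M genes were bounded.

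Stress and carbon source genes were mostly lower. The glucose-repressed and hexose transporter lists were bounded less often (56.0% and 58.8%) than all tested rows (86.3%), while the stress list was not (88.0%). Of 50 general stress genes 43 were lower, with a median of -0.07 and 44 bounded. That median was 0.01 without S228E replicate 1 and -0.15 without WT replicate 2. The library medians were -0.27, -0.01 and 0.07 in S228E, against 0.00, -0.14 and 0.17 in WT, and overlapped. Of 25 glucose-repressed genes 23 were lower, with a median of -0.19 and 14 bounded, and of 17 hexose transporters 15 were lower, with a median of -0.20 and 10 bounded. Without 1 library the 2 medians ranged from -0.27 to 0.01 and from -0.29 to -0.02, each with its highest value without WT replicate 3. HXT3, a low-affinity glucose transporter, had 2377, 2527 and 2666 CPM in S228E, against 2834, 2976 and 3103 CPM in WT, a log2 fold change of -0.24 (-0.42 to -0.05) with an adjusted edgeR p of 0.743.

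The iron regulon had a median of -0.08, with 21 of 26 genes bounded. FIT1, a cell wall mannoprotein that retains siderophore iron, had 72.4, 39.3 and 95.2 CPM in S228E, against 183, 76.3 and 156 CPM in WT. These values overlapped, since S228E replicate 3 lay above WT replicate 2. The log2 fold change was -1.01 ± 0.30 (SE), with an interval from -1.67 to -0.35 and an adjusted edgeR p of 0.644.

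Of 488 rows within 30 kb of a chromosome end 356 were tested. None was called, where the called share over all tested rows was 0.0489%. The median was -0.07 against -0.00 over all tested rows, 233 were lower and 121 higher, and 224 (62.9%) were bounded. All S228E values lay below WT in 49 of them (13.8%) and above in 10 (2.81%), where the shares over all tested rows were 7.68% below and 6.73% above. Without 1 library the median ranged from -0.10 to -0.04, with the highest value without WT replicate 3. Within 20 kb the median was -0.10 and within 50 kb it was -0.03. YHL050C, a reading frame of a subtelomeric repeat, had 15.8, 16.8 and 17.8 CPM in S228E, against 22.7, 20.9 and 23.7 CPM in WT, a log2 fold change of -0.42 (adjusted edgeR p 0.644). The meiotic genes were near WT too, with 9 of 12 early genes bounded and a median of -0.04, which was -0.13 without WT replicate 2 and 0.04 without WT replicate 3.

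Few rows of noncoding RNA were bounded. Of 71 tested snoRNA and snRNA rows 21 were bounded, and of 299 tRNA rows 20 were tested and 2 bounded, with none called. The called share over all tested rows was 0.0489%. Of 24 rRNA rows, which are repeated in the genome, 5 were tested. All 5 had a positive log2 fold change, with a median of 0.79 and a highest value of 2.27. In 2 of them all S228E values lay above WT, where the share over all tested rows was 6.73%, and none of the 5 was called or bounded. All rRNA rows together took 0.00111% to 0.00137% of the counts in S228E, against 0.000773% to 0.00106% in WT. A further 994 rows were not tested, of which 394 had no count in the 6 libraries. Another 79 rows had counts in WT and none in S228E, with at most 14 counts over the 3 WT libraries. The reverse held for 60 rows, with at most 10 counts over the 3 S228E libraries.

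Fold changes were related to gene length. In 5 classes of protein-coding rows of about equal number, ordered from short to long, the median log2 fold change was -0.07, -0.04, -0.01, 0.02 and 0.05, and 29.7%, 37.0%, 45.5%, 57.9% and 75.7% of the rows were positive. Spearman's rho across 5719 genes was 0.355 with length and -0.269 with GC content, which are descriptions over genes that share the same 6 libraries. In the shortest and the longest class, the library medians were -0.10 and 0.08 in S228E replicate 1, -0.04 and 0.03 in replicate 2, and -0.07 and 0.05 in replicate 3. WT replicate 2 had the opposite slope, with 0.06 and -0.07, and WT replicate 3 had the slope of S228E, with -0.08 and 0.06. With read counts adjusted for length the medians of the classes were 0.00 to 0.01. The adjustment was fitted on length over these same rows, so class medians near 0 were built in. Lists of short genes, such as the histones and ribosomal proteins, lie on the same side as this trend, and its part in their medians beyond the length-adjusted values given above was not tested.

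**Figure D5:**
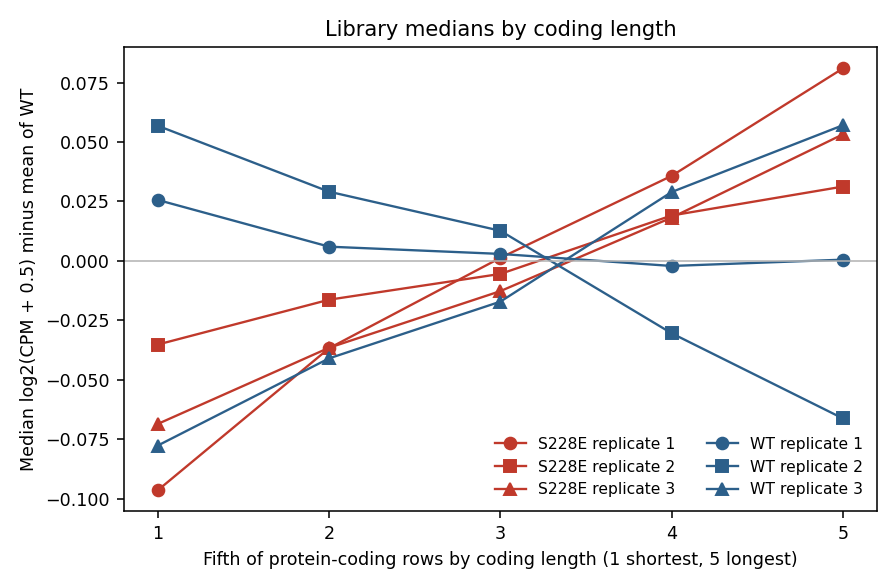
Median over protein-coding rows of log2(CPM + 0.5) minus the mean of the WT libraries (vertical axis, log2 units) by 5 classes of coding length (horizontal axis, 1 the shortest), 1 line per library. The 3 S228E lines and WT replicate 3 climb with length, WT replicate 1 is nearly flat and WT replicate 2 descends.

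The WT libraries were less alike than the S228E libraries. The spread of log2 differences between 2 libraries was taken as the median absolute deviation, scaled to match the SD of a normal distribution. It was 0.264 between WT replicates 2 and 3, larger than for any pair of an S228E and a WT library (0.153 to 0.222). The first principal component of the 6 libraries held 33.9% of the variance and set WT replicate 3 against WT replicate 2. The second held 22.5% and separated the 3 S228E libraries from the 3 WT libraries. The median SD of log2 CPM at 5 CPM or more was 0.0789 in S228E and 0.104 in WT, and it was larger in WT for 62.6% of 5536 rows. Some genes were high in 1 WT library. HXT2, a glucose transporter, had 2671, 4058 and 4277 CPM in S228E, against 3533, 2320.5 and 6974 CPM in WT. NCE103, the carbonic anhydrase, had 123, 101.1 and 121 CPM in S228E, against 90.6, 62.9 and 185 CPM in WT. Among genes high in 1 S228E library, PCL1, a cyclin of the Pho85 kinase, had 21.2, 10.2 and 8.81 CPM in S228E, against 11.1, 16.01 and 6.29 CPM in WT.

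Libraries held 14455017 to 19213414 counts in S228E and 17282728 to 19658103 in WT. Summed CPM of the 7 a-cell markers was 1674 to 1768 in S228E and 1428 to 1724 in WT, and of the 4 alpha-cell markers 56.0 to 63.8 in S228E and 57.5 to 61.7 in WT. For 6 haploid markers it was 521 to 576 in S228E and 492 to 523 in WT, and for 8 meiotic markers 100.03 to 109 in S228E and 98.3 to 119.8 in WT. For 6 markers of stationary or stressed cells it was 1303 to 1879 in S228E and 1491 to 1856 in WT. None of these markers was at 0 in all 6 libraries. None was called, where the called share over all tested rows was 0.0489%. In total RNA from a culture, fewer cells of a state and less RNA per cell cannot be told apart.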

How the data were processed

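The values are raw read counts for each annotated gene in a single table that the authors deposited. Per the file headers, featureCounts 2.0.1 in paired-end mode counted exons by gene identifier on the sacCer3 Ensembl annotation, with neither a strand option nor an option that would keep multiply placed reads; the deposited length column is the summed exon length. The submitters' processing notes name Bowtie 0.12.2 with no role, so the RNA aligner is not given in the sources used. The labels' extraction text describes chromatin, while the design text describes total RNA. Coordinates are those of the table. The sequences are RefSeq R64, where 5894 of 5898 nuclear coding rows begin with ATG. Symbols came from RefSeq for 6047 of 7127 rows.

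Columns were matched to samples by genotype letter and replicate number. Rows were filtered with filterByExpr, scaled with TMM (factors 0.972 to 1.03) and fitted with edgeR 4.0.16 (glmQLFit, glmQLFTest, R 4.3.3) over all 9 libraries, with S228E minus WT as contrast. The common biological coefficient of variation was 9.61%. The SE was the absolute log2 fold change over the square root of F, and intervals used the t quantile at the fit's degrees of freedom. Equivalence was 2 one-sided tests on that SE, adjusted by Benjamini-Hochberg. The length adjustment was an offset per library from a lowess curve (span 0.5) of log2 count ratio on log2 length. CPM per library are TMM-scaled. Alternatives used DESeq2 1.42.0 and limma 3.58.1. The script was checked on simulated data.

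Named genes were all called rows, the 10 smallest p and the 5 largest non-overlapping fold changes per direction at 5 CPM or more, COMPASS genes, the widest and narrowest intervals, rows high in 1 library and up to 3 members per list with the smallest p. YAR010C and other neighbours were chosen by position, and YHL050C was a list member by that rule. The comparison, the lists and the tests were chosen with earlier results of these data known. No 2 libraries agreed within sampling noise, so none was treated as a duplicate.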

Additional observations from a re-analysis of the deposited data

How the results depend on the processing

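YAR009C was called under 16 of 16, with an adjusted p of at most 0.0383, and QRI5 and YLR161W under 7 of 16 each. The count called higher was 2. It was 3 with DESeq2, which added ASP3-4 (adjusted p 1.88e-05), and 1 with limma-voom, with the 6 libraries alone, and with the replicate number as a block with or without the length offset. The count called lower was 1. It was 2 with DESeq2, which added RGI1 (adjusted p 0.0113), and 0 with the 6 libraries alone, with the block, with the length offset and with both. Without 1 replicate the counts ranged from 1 to 2 higher and from 0 to 1 lower, and the rows bounded from 5045 to 5191. At a bound of a 25% increase or the matching decrease 3458 rows were bounded and 3611 equivalent. Other normalizations and filters gave 5278 to 5339 bounded, and the replicate block 5268. Same-number libraries of S228E and WT had correlations of deviations of -0.00, 0.05 and 0.23, and different-number libraries had -0.25 to 0.19. These few values, from deviations about means of 3 libraries, cannot decide whether replicate numbers pair the samples. With that block QRI5 and YLR161W each had an adjusted p of 0.132, and the cause of the lost calls was not tested. The block combined with the length offset was chosen after seeing the data. Depth limits rows under 5 CPM, and PCR copies make counting errors a lower limit. Of 50 named genes 39 kept their sign under every alternative tried, YAR009C, QRI5, YLR161W and SET1 among them. The other 11 had 31 values of the other sign, none called, 21 of them without 1 replicate. Without 1 replicate the log2 fold change ranged from -0.46 to 0.41 for AQR1, from -0.022 to 0.0040 for ATP11, from -0.52 to 0.33 for HXT2, from -0.25 to 0.58 for NCE103, from -0.23 to 0.63 for PCL1, from -0.30 to 0.64 for RCK1, from -0.56 to 0.37 for RGI2, from -0.0065 to 0.11 for SDC1, from -0.028 to 0.062 for SWD1, from -0.18 to 0.60 for YGR079W and from -0.0067 to 0.0087 for YPK1. ATP11 stood at 0.0022 with DESeq2, 0.0025 with RLE scaling and 0.019 with the length offset, alone or with the block. RCK1 stood at -0.055 with the block and -0.055 with block and offset. With upper-quartile scaling SWD1 stood at -0.0036 and YPK1 at -0.022, and YPK1 at -0.022 with the offset, alone or with the block. The cause of these changes of sign was not tested.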

Other observations

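Values of further pathways follow. Of 37 tested Gcn4-controlled amino acid synthesis genes 36 were bounded within 1.5-fold, with a median log2 fold change of 0.02. Among them LYS21, a homocitrate synthase, had 203, 194 and 185 CPM in S228E, against 188, 179 and 175 CPM in WT, a log2 fold change of 0.10 (-0.06 to 0.26). Of 22 chaperone genes of the heat shock factor 21 were bounded, with a median of 0.05. SSE1, an Hsp110 chaperone, had 1484, 1488 and 1498 CPM in S228E, against 1284, 1481 and 1291 CPM in WT, with an interval from -0.03 to 0.31.

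Of 17 phosphate regulon genes 15 were bounded, with a median of 0.03. VTC1, of the vacuolar polyphosphate polymerase, had 356, 364 and 381 CPM in S228E, against 475, 427 and 399 CPM in WT, a log2 fold change of -0.24 (adjusted p 0.761 in edgeR's quasi-likelihood test). Of 19 subunits of RNA polymerases I and III 17 were bounded, with a median of 0.07. RPC25, an RNA polymerase III subunit, had 26.5, 24.2 and 22.5 CPM in S228E, against 18.4, 22.99 and 15.96 CPM in WT, a log2 fold change of 0.36 (adjusted p 0.743 in edgeR's quasi-likelihood test), and the groups overlapped. Of 9 tested galactose regulon genes 8 were bounded, with a median of -0.12. Of 25 tested nitrogen-regulated genes 19 (76.0%) were bounded, against 86.3% of all tested rows. The median was -0.03, and this list holds ASP3-4 and ASP3-1, whose log2 fold changes were 1.68 and 6.57. Without 1 library, the median ranged from 0.00 to 0.16 for the RNA polymerase I and III subunits, from -0.18 to -0.05 for the galactose regulon and from -0.13 to -0.00 for the nitrogen-regulated genes. Their values nearest 0 came without S228E replicate 1 for the polymerase subunits and without WT replicate 3 for the other lists.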
